A study of Mus musculus with 12 samples.

Results

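The region around Casp9 on mouse chromosome 4 was read with every array probe that the files place between 121.4 and 161.4 Mb, which is 20 Mb to each side of Casp9. Casp9 itself, the interferon-induced gene Isg15 and the complement genes C1qa, C1qb and C1qc were left out. Of 1088 probes in this stretch, 8 belonged to these 5 genes, and 1080 probes of 606 gene names remained out of 45281 probes on the array. Of the 1080, 532 probes of 337 gene names were above background on at least 3 of the 12 arrays and were tested, and 548 were not. The 1080 probes lay between 18.99 Mb on the proximal side of the Casp9 probe ILMN_1217061, toward lower coordinates, and 14.23 Mb on the distal side.

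RNA came from bone marrow cells sorted as Lineage-negative, Kit-positive and CD45.2-positive, which enriches for blood stem cells and progenitors. They were taken from femur and tibia of C57BL/6 chimeras 12 to 16 weeks after a transplant of fetal liver cells of embryonic day 13.5, so that the genotype named below is that of the transplanted cells as far as the labels say. Casp9 KO cells (caspase-9 knock-out, 3 arrays) were hybridised beside wild-type cells, WT experiment 1 (3 arrays), on 1 beadchip. Bak/Bax DKO cells (Bak and Bax double knock-out, 3 arrays) and their own wild type, WT experiment 2 (3 arrays), were on another beadchip and served here as the comparison in which Casp9 was intact. The labels do not give the genotype of the recipients, how the knock-out alleles were made or in which strain, and they do not say that the samples of a group were separate animals, so the p-values measure the spread between these samples.

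Caspase-9 is the protease that starts the caspase cascade once mitochondria release cytochrome c, and Bak and Bax are the proteins that open the outer mitochondrial membrane upstream of it. A gene and its neighbours on a chromosome are inherited together unless recombination separates them, so a knock-out mouse carries the flanks of the targeted gene along with the altered allele. A bead probe reports only the short transcript stretch that it matches, so that probes of one gene can report different transcript forms.

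The targeted gene followed the labels: on the normalized log2 scale used throughout, the informative Casp9 probe read 8.02, 8.99 and 8.83 in WT experiment 1 and 5.37, 5.24 and 5.48 in Casp9 KO. The other 3 Casp9 probes were below background on all 6 of these arrays. All 5 markers of the sorted cells (Kit, Ptprc, Cd34, Myb and Gata2) were above background on all 12 arrays, while the T cell gene Cd3e and the stromal gene Col1a1 were on 0 of them. The share of probes above background was 35.7% to 39.7% per array. Bak/Bax DKO replicate 2 stood apart. Of 4822 probes bright in WT experiment 2, 951 (19.72%) were over 3 log2 units lower on it, against at most 0.10% on any other array, and 23 of the 156 bright probes of the Casp9 region (14.7%) were among them. Results that rest on this array are therefore given with and without it.

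Upstream sequences are shown for 4 genes of the region that rose in Casp9 KO. Sdc3 and Agrn are the ones whose rises held with each array left out in turn, and Cap1 and Themis2 are the ones whose 250 bases upstream of the start hold a match to a STAT-binding motif. The sequences are those of RefSeq on GRCm38.p6, for Agrn from 1 of its 2 listed starts, and their positions belong to that build. For the probe positions the genome build is not given in the sources used, so these coordinates were not compared with those of the probes. Capitals mark a match to the letters of the GAS motif (interferon-gamma activated sequence, TTCNNNGAA). It reads the same on both strands.
Sdc3, chr4:130792287-130792536, plus strand: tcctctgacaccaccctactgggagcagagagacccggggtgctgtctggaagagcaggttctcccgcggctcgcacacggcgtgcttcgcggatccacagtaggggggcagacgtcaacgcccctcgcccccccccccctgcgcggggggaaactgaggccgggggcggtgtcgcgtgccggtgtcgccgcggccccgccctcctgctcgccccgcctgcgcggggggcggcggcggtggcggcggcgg
Agrn, chr4:156197489-156197738, minus strand: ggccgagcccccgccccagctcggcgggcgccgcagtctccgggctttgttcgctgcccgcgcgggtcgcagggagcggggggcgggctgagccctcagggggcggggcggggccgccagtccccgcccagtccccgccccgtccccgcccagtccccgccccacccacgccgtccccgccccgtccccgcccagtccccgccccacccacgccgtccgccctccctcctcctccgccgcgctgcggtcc
Cap1, chr4:122886077-122886326, minus strand: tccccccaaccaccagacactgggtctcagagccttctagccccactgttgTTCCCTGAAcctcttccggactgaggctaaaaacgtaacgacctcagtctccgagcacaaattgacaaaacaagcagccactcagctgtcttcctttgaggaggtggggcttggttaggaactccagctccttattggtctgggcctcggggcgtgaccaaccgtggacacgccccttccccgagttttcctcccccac
Themis2, chr4:132796365-132796614, minus strand: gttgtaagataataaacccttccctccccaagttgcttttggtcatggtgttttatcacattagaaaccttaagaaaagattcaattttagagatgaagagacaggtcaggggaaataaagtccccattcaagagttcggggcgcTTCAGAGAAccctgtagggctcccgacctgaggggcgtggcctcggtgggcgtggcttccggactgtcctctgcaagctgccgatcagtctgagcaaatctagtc

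The 250 bases were 76.4% G and C in Sdc3, 83.6% in Agrn, 57.2% in Cap1 and 49.6% in Themis2. RefSeq held 354 such sequences for 259 tested genes of the region, and 13 of them (3.67%) held the GAS letters, against 2306 of all 32851 upstream sequences (7.02%). Among the called genes described below, they were found in 2 of 11 sequences of genes that rose and in 0 of 5 of genes that fell. A core of the interferon-stimulated response element, read here as GAAA followed after any 2 bases by another GAAA on either strand and free to share bases with a GAS match, was in 0 of those 11, in 0 of those 5, in 9 (2.54%) of the tested genes' sequences and in 978 (2.98%) of all. These matches describe letters only.

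Across the region, 22 of 532 probes (4.14%) were called in Casp9 KO against WT experiment 1, where called means an adjusted p under 0.05 in a limma fit to the 6 arrays of the comparison, adjusted by the Benjamini-Hochberg method over all 18867 probes tested. The calls named 19 genes, of which 13 were higher and 6 lower. The background was close to this share: 3.39% of all probes tested were called. On the rest of chromosome 4 the share was 2.29% (15 of 654) and on the other chromosomes it was 3.39% (597 of 17609). Called higher were 13 probes of the region (2.44%, against 2.04% of all), and called lower were 9 (1.69%, against 1.36% of all). At an unadjusted p under 0.05 there were 108 (20.3%), against 18.6% of all. With each gene represented by its brightest probe, 19 of 334 genes of the region (5.69%) were called, against 4.16% of all genes. These need not be the 19 genes counted above. In the fit to all probes the brightest probes of Pabpc4, Csf3r and Zfp979 were not called (limma adjusted p = 0.109, 0.408 and 0.102). The median change was -0.023 in the region and -0.027 over all probes, and 53.2% and 55.0% of the probes, respectively, lay below wild type. The median absolute change was 0.178 in the region and 0.154 over all probes. Calls were sensitive to single arrays: 3 of the 22 held when any 1 of the 6 arrays was dropped, on Necap2, Sdc3 and Agrn. The region had between 4 and 27 calls in these fits, of which 4 to 18 were among the 22.

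By distance from Casp9, the share of probes called was highest within 1 Mb, where few probes were tested. There 3 of 28 probes (10.7%) were called, and they belonged to 2 of 17 genes. No test was run on these shares. From 1 to 5 Mb on either side the count was 1 of 65 (1.54%), from 5 to 10 Mb 9 of 209 (4.31%), and from 10 to 20 Mb 9 of 230 (3.91%). Called probes lay at a median of 8.38 Mb from Casp9 and tested probes at 9.09 Mb. The sides were covered unequally: 27 probes were tested within 1 Mb on the proximal side but 1 on the distal side, and 52 and 13 from 1 to 5 Mb. Of the calls, 16 were proximal and 6 distal.

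**Figure D1:**
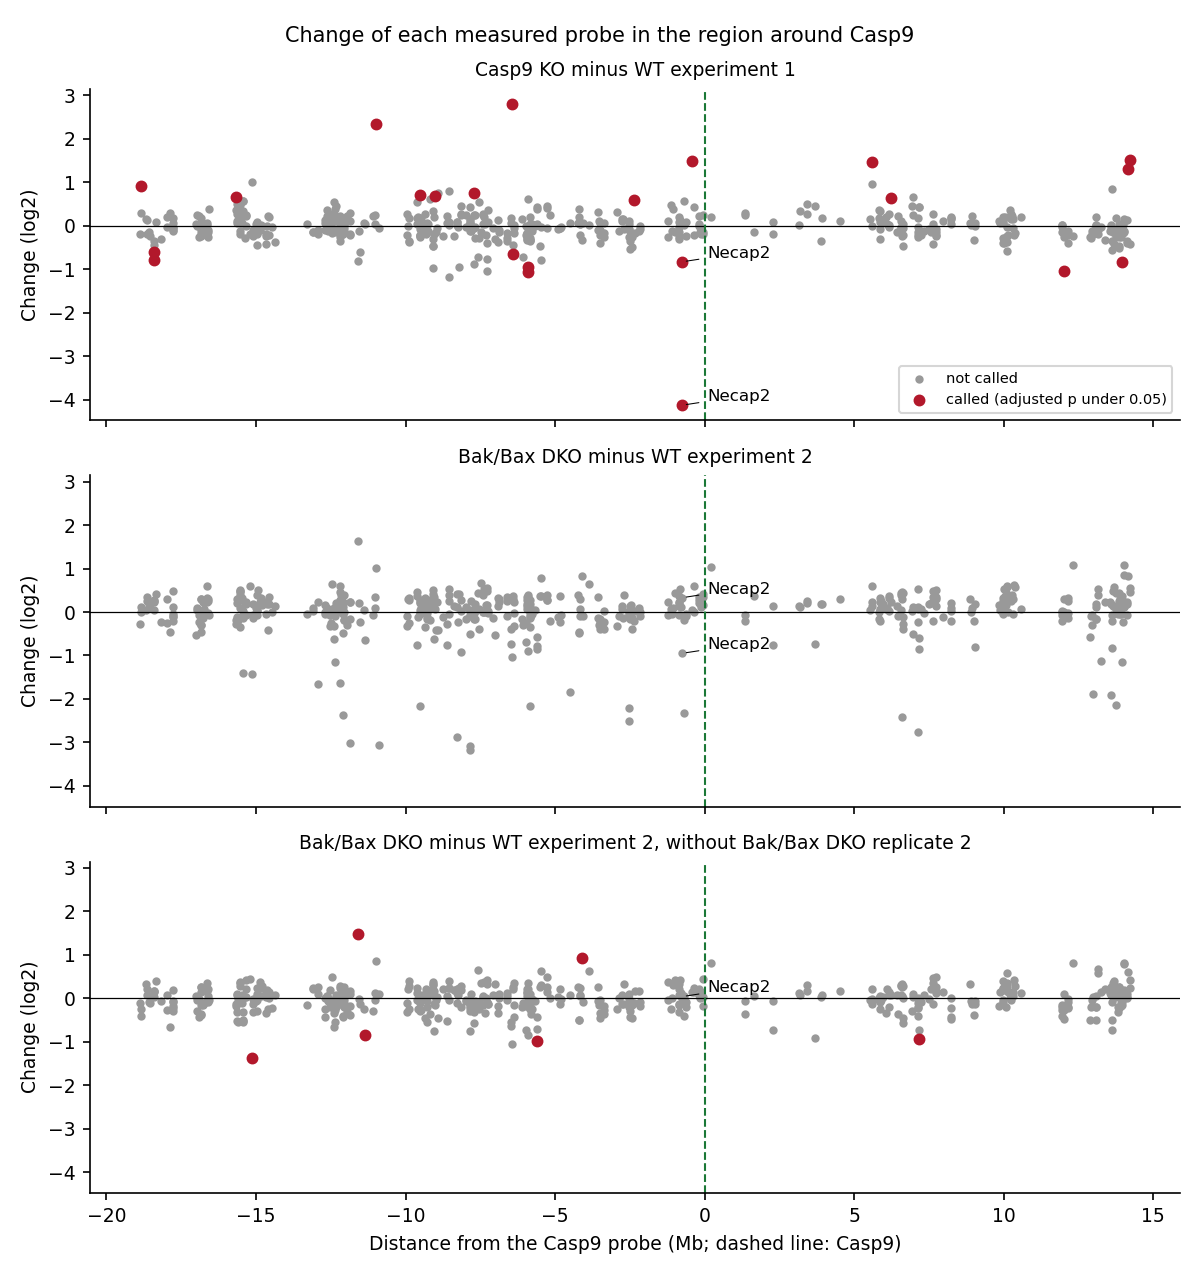
Log2 change of each of the 532 tested probes (vertical axis) against its distance from the Casp9 probe in Mb (horizontal axis, negative toward lower coordinates), in Casp9 KO minus WT experiment 1, in Bak/Bax DKO minus WT experiment 2, and in the latter without Bak/Bax DKO replicate 2; red points were called. Both Necap2 probes are named, and the lower one at -4.13 in the top panel lies far below every other probe of the region.

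**Figure D2:**
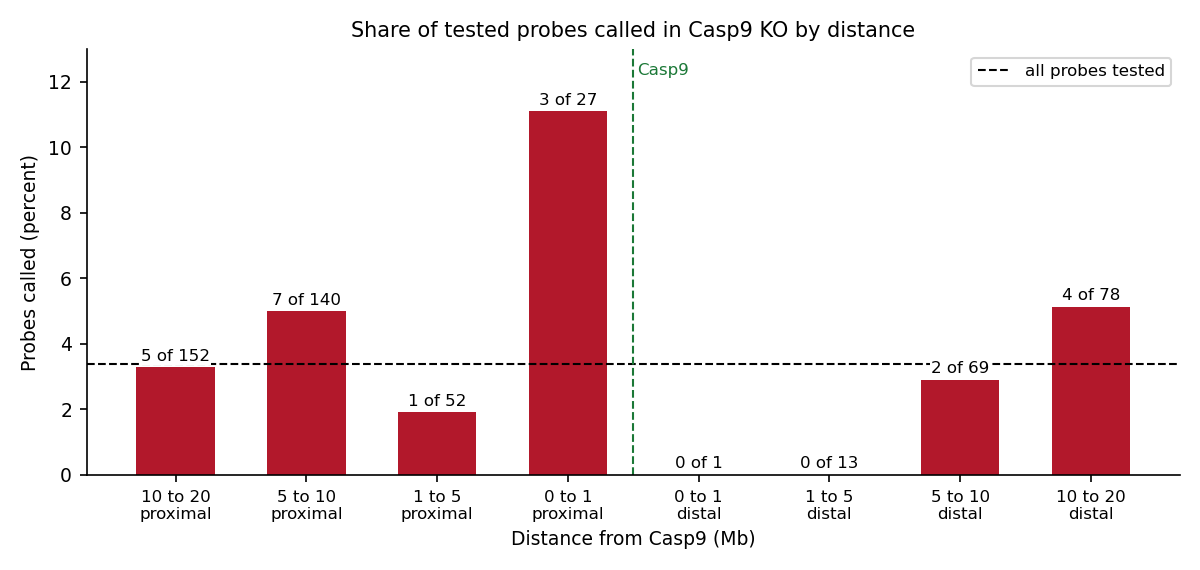
Percent of tested probes called in Casp9 KO in classes of distance from Casp9 in Mb, with the number called and tested above each bar and the 3.39% of all probes as a dashed line. The class up to 1 Mb on the proximal side is highest, with 3 of 27 probes called, 2 of them the Necap2 probes.

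Necap2, 0.75 Mb proximal of Casp9, changed more than any other gene of the region. It encodes a protein that binds the AP adaptors of clathrin-coated vesicles and takes part in endocytic recycling. The array holds 2 Necap2 probes, both matched to NM_025383 on the minus strand, each 50 bases long, 90 bases apart from start to start and separated by 40 bases in the files' coordinates. Probe ILMN_2774882 (chr4:140622590-140622639) was at 10.86, 11.77 and 11.76 in WT experiment 1 and at 7.53, 7.07 and 7.40 in Casp9 KO. The groups were far apart: the highest Casp9 KO array lay over 3 log2 units below the lowest wild-type array. The means were 11.47 ± 0.53 and 7.33 ± 0.23 (SD, n = 3), a change of -4.13 (SE 0.25, limma adjusted p = 8.1e-05), or 17.5-fold lower. This was rank 1 of the 18867 probes by size of fall and rank 21 by p. The call held with each array left out, with a change of -4.44 to -3.98 and an adjusted p of at most 8.2e-04, and it held in a fit to all 12 arrays (adjusted p = 0.00988).

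The neighbouring probe ILMN_2796400 (chr4:140622680-140622729) fell much less. It was at 10.49, 10.83 and 10.83 in WT experiment 1 and at 9.96, 9.92 and 9.79 in Casp9 KO, again without overlap. The change was -0.83 (SE 0.13, limma adjusted p = 0.014), or 1.77-fold lower. This call was lost without WT experiment 1 replicate 2 or 3 or without Casp9 KO replicate 3 (adjusted p up to 0.0757), and with all 12 arrays in the fit (adjusted p = 0.170).

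In the arrays with Casp9 intact, Necap2 probe ILMN_2774882 was at 11.78, 11.50 and 11.56 in WT experiment 2 and at 11.72, 8.67 and 11.58 in Bak/Bax DKO. The 1 low array was Bak/Bax DKO replicate 2, and without it the change was 0.04 (adjusted p = 0.951). Probe ILMN_2796400 was at 10.31, 10.31 and 10.55 and at 10.35, 11.36 and 10.44, and replicate 2 was the highest there. Its change without that array was 0.01 (adjusted p = 0.991). The test of the difference between the 2 knock-out effects gave -3.18 (adjusted p = 0.124) for ILMN_2774882 on all 12 arrays and -4.17 (adjusted p = 2.2e-05) without Bak/Bax DKO replicate 2. For ILMN_2796400 the same differences were -1.15 (adjusted p = 0.125) and -0.83 (adjusted p = 0.031).

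**Figure D3:**
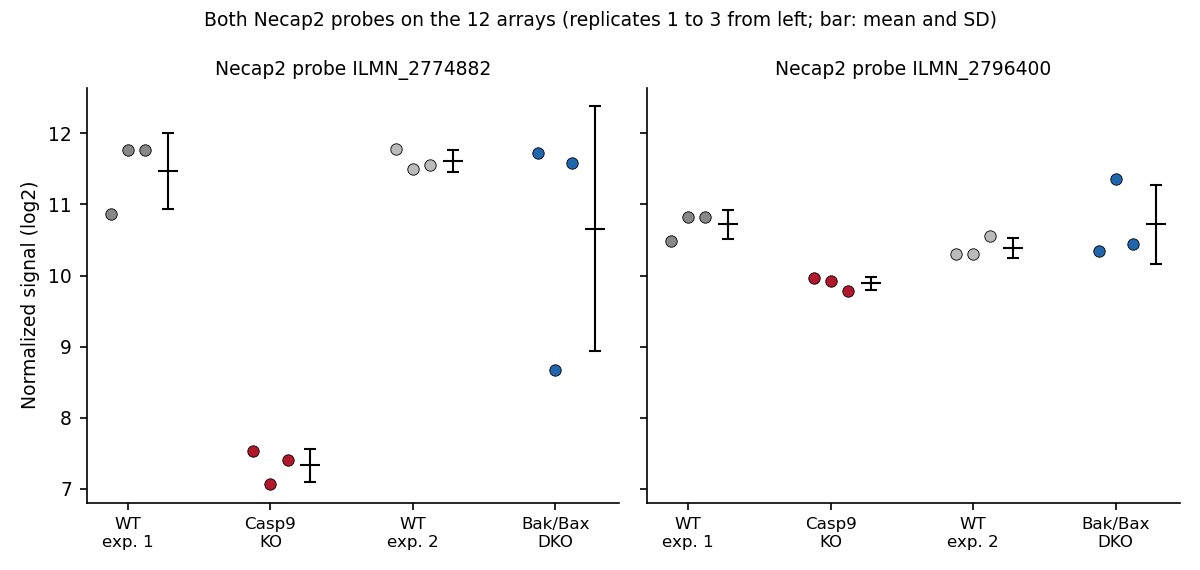
Normalized log2 signal of both Necap2 probes on the 12 arrays, with each array as a point and the mean and SD of each group beside it. Probe ILMN_2774882 drops from between 10.86 and 11.77 to between 7.07 and 7.53 in Casp9 KO and is low on 1 Bak/Bax DKO array, replicate 2; probe ILMN_2796400 stays between 9.79 and 11.36.

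Whether the 2 probes of a gene changed unequally was tested on their difference within each array, taking the probe that was brighter over the 12 arrays minus the other. For Necap2 (ILMN_2796400 minus ILMN_2774882) this difference was -0.36, -0.94 and -0.93 in WT experiment 1 and 2.43, 2.85 and 2.40 in Casp9 KO. The Casp9 KO and wild-type arrays did not overlap in this difference. The unequal change was 3.31 (SE 0.21, limma adjusted p = 0.00255 over 7096 pairs of all genes), rank 1 by p and rank 2 by size. It held whichever of the 6 arrays was dropped (adjusted p up to 0.0303) but not in the fit to all 12 arrays (adjusted p = 0.662), in which Bak/Bax DKO replicate 2 had a difference of 2.69 against -1.37 and -1.14 on the other Bak/Bax DKO arrays. Without that array the fit gave adjusted p = 2.5e-05.

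Among 195 probe pairs of 129 genes of the region, Necap2 was the only pair called. In the whole comparison 6 of 7096 pairs (0.0846%) were called, the other genes being Casp9, Cxcl10, Grb10, Ifit3 and Oas1g. At an unadjusted p under 0.05 there were 9.23% of the pairs of the region and 10.3% of all pairs. The next largest unequal change of the region was 1.64, for Cd52, and 5 pairs passed 1. The median absolute unequal change was 0.17 in the region and 0.14 over all pairs. In Bak/Bax DKO 3 pairs of all genes were called, and 8 without replicate 2, of which 0 lay in the region in either case. A call of this kind shows that the signals changed unequally and does not say which transcript stretch changed.

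**Figure D4:**
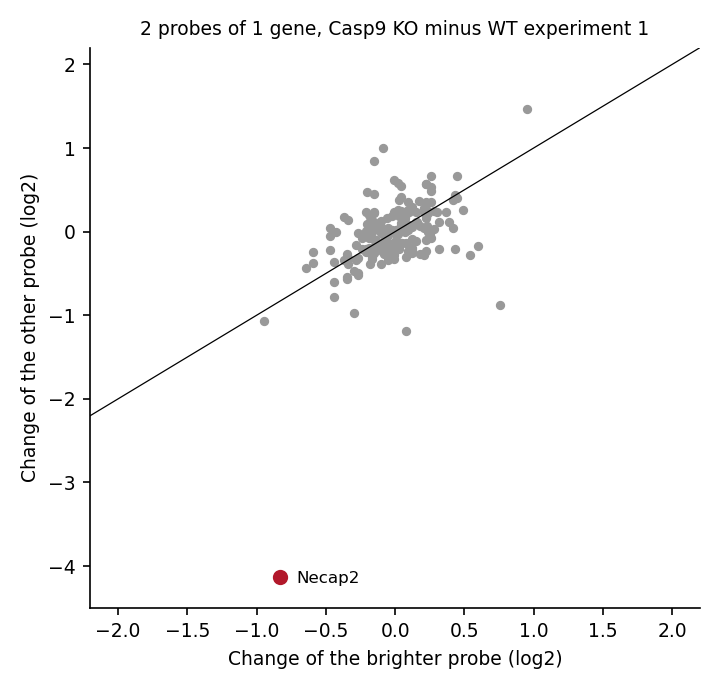
Log2 change in Casp9 KO of the brighter probe (horizontal axis) and of the other probe (vertical axis) of each of the 195 probe pairs of the region; the line marks equal change. Necap2, with changes of -0.83 and -4.13, lies apart from the other pairs, of which Cd52 (0.76 and -0.88) departs most.

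Of the genes within 1 Mb, 15 with 25 tested probes had 0 calls. Crocc, which encodes rootletin of the ciliary rootlet, came nearest on the lower side. Its probe was at 5.28, 6.04 and 5.98 in WT experiment 1 and at 4.96, 4.69 and 5.13 in Casp9 KO. The arrays did not overlap, but the change of -0.84 (SE 0.21) missed the threshold (limma adjusted p = 0.0761). Szrd1 came nearest on the higher side with 1 of its 2 probes: ILMN_1216950 was at 8.89, 8.45 and 8.88 and at 9.33, 9.38 and 9.24, a change of 0.58 (adjusted p = 0.0718), while ILMN_3129206 changed by 0.02 (adjusted p = 0.970).

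Around these, 3 probes of Padi2, a peptidylarginine deiminase, were at -0.02, -0.27 and -0.31, and 3 of Sdhb, the iron-sulphur subunit of respiratory complex II, at -0.14, 0.21 and 0.08. Fbxo42, an F-box subunit of ubiquitin ligases, was at -0.23 and 0.09, and Atp13a2, a lysosomal transport ATPase, at 0.14. Closer to Casp9, the transcription factor gene Zbtb17 was at -0.21, the corepressor gene Spen at 0.43, Tmem82 at 0.22, the mitochondrial carrier gene Slc25a34 at -0.01, and Plekhm2, which links lysosomes to kinesin, at 0.04. The nearest genes on the proximal side were AK004273 (-0.15 and -0.02), the protease gene Ddi2 (-0.19 and -0.07) and the J-domain protein gene Dnajc16 (-0.15, 0.24 and -0.19), whose probes began 53.8 to 55.4 kb from that of Casp9. On the distal side Tmem51 at 215.2 kb was at 0.21. Their adjusted p-values were 0.327 to 0.981.

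Beyond 1 Mb, the rises with the smallest adjusted p were those of Sdc3 and Agrn. Sdc3, 10.99 Mb proximal, encodes the heparan sulphate proteoglycan syndecan-3. Its probe ILMN_2715042 was at 5.11, 4.92 and 5.47 in WT experiment 1 and at 6.98, 7.68 and 7.84 in Casp9 KO. The lowest Casp9 KO array was clearly above the highest wild-type array, and the 5.05-fold rise (2.34, SE 0.24, limma adjusted p = 0.0012) held with each array left out (2.17 to 2.60). In experiment 2 the probe was at 5.16, 5.36 and 5.11 in wild type and at 5.87, 6.56 and 6.25 in Bak/Bax DKO, also without overlap. That change of 1.02 was not called (adjusted p = 0.224, and 0.0543 without replicate 2), and the test of the difference of the 2 effects gave 1.32 (adjusted p = 0.102) and, without that array, 1.48 (adjusted p = 0.0209).

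Agrn, 14.17 Mb distal, encodes agrin, a secreted proteoglycan of basement membranes. Its probe ILMN_2674367 was at 7.72, 8.04 and 7.99 in WT experiment 1 and at 8.96, 9.33 and 9.37 in Casp9 KO. The 2.47-fold rise (1.30, SE 0.15, limma adjusted p = 0.00265) did not overlap between groups and held with each array left out (1.20 to 1.43), while the 2 other Agrn probes did not pass the detection filter. In Bak/Bax DKO it was at 8.55, 9.25 and 8.58 against 8.24, 7.71 and 7.89, a change of 0.84 that was not called (adjusted p = 0.431, and 0.19 without replicate 2). AK044300, a transcript known here by its accession alone, lay 14.21 Mb distal. It was at 4.52, 4.57 and 4.92 in WT experiment 1, below background on all 3 arrays, and at 5.76, 6.64 and 6.13 in Casp9 KO, at least 2.31-fold higher (fitted change 1.51, SE 0.22, adjusted p = 0.00934), a call lost without WT experiment 1 replicate 2. Such a bound sets the Casp9 KO mean against the lowest log2 signal that counts as above background on each wild-type array. In Bak/Bax DKO AK044300 was at 4.83, 5.38 and 5.16 against 4.53, 4.56 and 4.61 in WT experiment 2, again without overlap. That change of 0.56 was not called (limma adjusted p = 0.499, and 0.317 without replicate 2). The left-out gene Isg15 is the neighbour of both: the probes of AK044300 and Agrn began 10.2 and 34.5 kb from that of Isg15, which was at 7.45 ± 0.24 in WT experiment 1 and 11.57 ± 0.11 in Casp9 KO (SD, n = 3). The part of this position in their rises was not tested.

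Ncmap, 6.45 Mb proximal, encodes a membrane protein known from myelinating Schwann cells and had the largest fitted rise of the region. It was at 6.06, 4.38 and 4.28 in WT experiment 1 and at 7.25, 7.81 and 8.06 in Casp9 KO. All Casp9 KO arrays were above all wild-type arrays, but 1 wild-type array was itself raised and the other two were below background. The change was 2.80 (SE 0.44, limma adjusted p = 0.0137). Its spread was also wide in experiment 2, where wild type stood at 4.41, 7.28 and 4.63 and Bak/Bax DKO at 4.37, 4.43 and 4.42. The call was lost without WT experiment 1 replicate 2 or Casp9 KO replicate 3. Zfp979, 5.61 Mb distal, belongs to the zinc finger family, whose members have close copies that its probes may not tell apart. Probe ILMN_2776728 was at 4.63, 5.31 and 5.04 and at 7.03, 6.25 and 6.09 in Casp9 KO, a rise of 1.47 (SE 0.26, adjusted p = 0.0228) that was lost without WT experiment 1 replicate 1 or 3. The second Zfp979 probe was at 0.95 (adjusted p = 0.102).

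Rises of less than 1 on the log2 scale were called for 7 genes. Themis2, a signalling adaptor of B cells and macrophages, was at 6.60, 6.62 and 6.50 in WT experiment 1 and at 7.08, 7.14 and 7.54 in Casp9 KO (0.68, SE 0.14, limma adjusted p = 0.0435). Cd52, a small glycoprotein of the lymphocyte surface, was at 10.67, 10.76 and 11.07 and at 11.37, 11.71 and 11.72 with probe ILMN_2910934 (0.76, adjusted p = 0.0361). Its other probe had a change of -0.88 (adjusted p = 0.426), so the 2 Cd52 probes did not share a direction. Csf3r, the receptor of granulocyte colony-stimulating factor, was at 4.62, 4.33 and 4.58 and at 5.38, 5.03 and 5.09 with probe ILMN_2707409, below background on all 3 wild-type arrays and at least 1.15-fold higher in Casp9 KO (adjusted p = 0.0434). Its 3 other tested probes were at 0.26 to 0.49 and missed the threshold.

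Cap1, an actin-binding protein named for its link to adenylyl cyclase, was at 7.42, 7.44 and 6.79 in WT experiment 1 and at 8.27, 7.96 and 8.15 in Casp9 KO (0.91, SE 0.19, limma adjusted p = 0.0405). Rab42, a small GTPase, was at least 1.32-fold higher (adjusted p = 0.0287). Disp3, a relative of the Hedgehog exporter Dispatched, was at least 1.12-fold higher (adjusted p = 0.037), and both were below background on all WT experiment 1 arrays. Ubr4, a ubiquitin ligase that recognises N-terminal degrons, was at 5.77, 5.52 and 5.56 and at 6.18, 6.21 and 6.27 with probe ILMN_1222599 (0.60, adjusted p = 0.0311), while a second probe was at -0.17 (adjusted p = 0.742). The calls on Themis2, Cd52, Csf3r, Cap1, Rab42, Disp3 and Ubr4 were each lost without 4 to 6 of the 6 arrays taken singly.

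Apart from Necap2, falls were called for 5 genes. Cnr2, 5.90 Mb proximal, encodes the cannabinoid receptor of immune cells and fell with both of its probes. Probe ILMN_1235201 was at 8.60, 8.84 and 8.79 in WT experiment 1 and at 8.02, 7.61 and 7.40 in Casp9 KO (-1.07, SE 0.17, limma adjusted p = 0.0135). Probe ILMN_2794526 was at 8.68, 8.94 and 8.77 and at 8.03, 7.96 and 7.57 (-0.95, adjusted p = 0.0137). The 2 probes moved alike and neither overlapped between groups, though both calls were lost without WT experiment 1 replicate 2 or 3. In Bak/Bax DKO the changes were 0.35 and 0.40 and were not called (adjusted p = 0.717 for both).

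Pabpc4, a cytoplasmic poly(A)-binding protein 18.40 Mb proximal, also fell, but not all of its tested probes were called. The uncalled ILMN_1260325 and ILMN_2616497 were at -0.44 (limma adjusted p = 0.109) and -0.36 (adjusted p = 0.545). ILMN_3159730 was at 10.47, 10.55 and 10.39 and at 9.92, 9.58 and 9.58 (-0.78, SE 0.13, limma adjusted p = 0.0182), and ILMN_2528440 at 11.86, 11.83 and 11.68 and at 11.24, 11.17 and 11.17 (-0.60, adjusted p = 0.0253). Rcan3, a regulator of the phosphatase calcineurin, was at 8.91, 9.28 and 9.21 and at 8.55, 8.55 and 8.39 (-0.64, adjusted p = 0.0419), and its second tested probe was at -0.44 (adjusted p = 0.151). C1qtnf12, a secreted protein with a C1q domain, was at 12.15, 12.28 and 12.10 and at 11.77, 11.15 and 11.13 (-0.83, adjusted p = 0.0471). The calls on Rcan3 and C1qtnf12 were lost in 5 of the 6 fits that dropped 1 array, and the Pabpc4 calls in 4 and 5 of them.

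Smim1, a small membrane protein that carries a blood group antigen on human red cells, lay 12.03 Mb distal and fell. It was at 10.78, 10.56 and 10.81 in WT experiment 1 and at 10.11, 9.69 and 9.24 in Casp9 KO (-1.04, SE 0.21, limma adjusted p = 0.035), a call lost without 5 of the 6 arrays taken singly. Erythroid markers outside the region were lower in the same arrays: the mean log2 level of Klf1, Hba-a1 and Epor was 10.89 to 11.14 in WT experiment 1 and 10.02 to 10.63 in Casp9 KO. Of these 3, 1 was called, Klf1 (-0.84, limma adjusted p = 0.0412). Their part in the Smim1 result was not tested, and in sorted cells measured in bulk fewer cells of a type and less RNA per cell cannot be told apart.

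**Figure D5:**
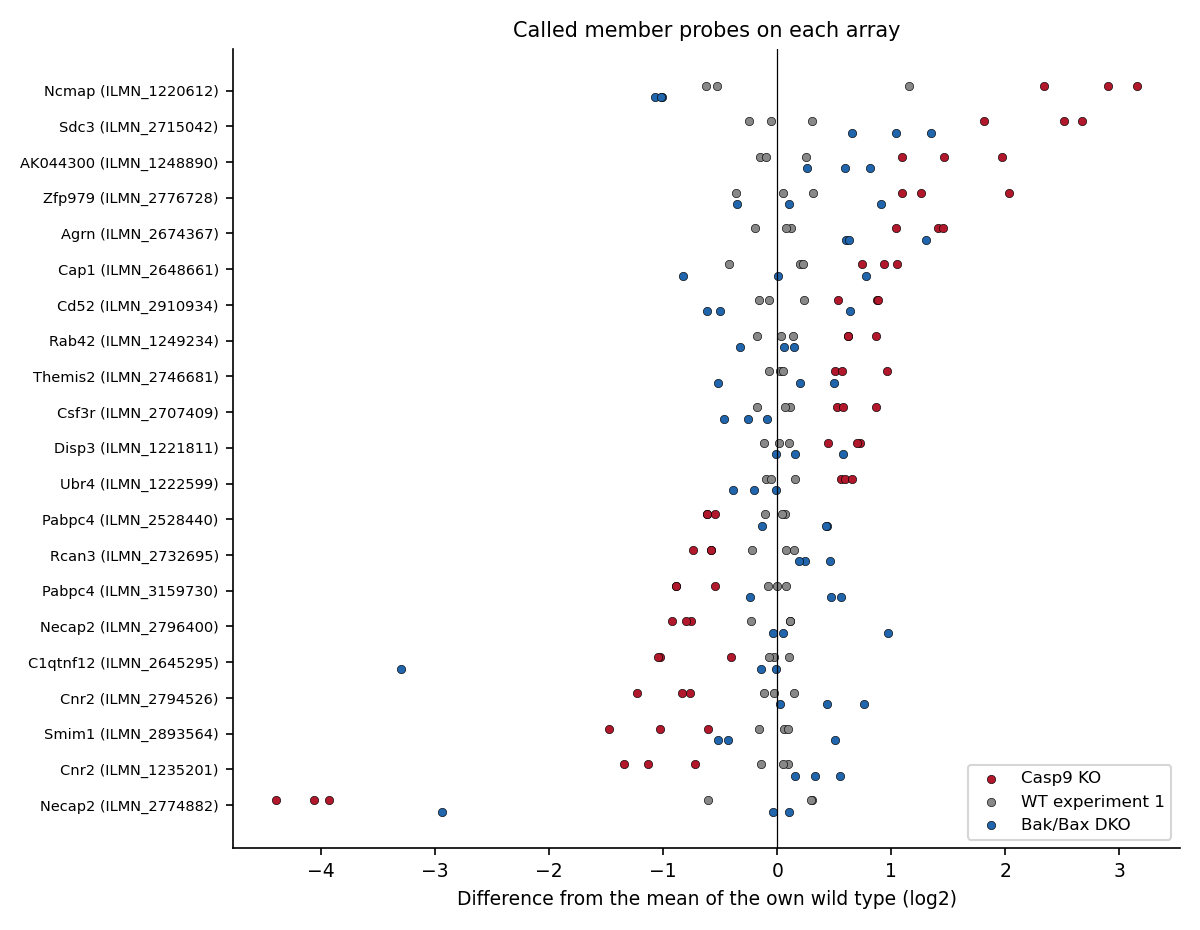
Probes called in Casp9 KO (21 of the 22), ordered by change, with each array's difference from the mean of its own wild type on the log2 scale (red Casp9 KO, grey WT experiment 1, blue Bak/Bax DKO). The red points lie clear of the grey ones in every line, but the probes were chosen by this difference in the same arrays. The blue points of Sdc3, Agrn, AK044300, Rcan3 and both Cnr2 probes lie above 0 with all 3 arrays.

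Calls in gene groups of the region, read from lists of known roles, were set against the 3.39% of all probes that were called in Casp9 KO. Most of the called genes were in none of the lists, and where a gene had several probes the value given is that of the probe with the smallest p. Of 7 tested probes of TNF receptor superfamily genes 0 were called (median 0.15); Tnfrsf1b, the second TNF receptor, was at 0.49 (limma adjusted p = 0.104) and Tnfrsf14 at -0.29 (adjusted p = 0.393). Of 14 probes of cell death and DNA damage genes 1 was called, Ubr4 (median -0.04); Kif1b, a kinesin, was at 0.44 (adjusted p = 0.0975), with other probes at 0.43 and -0.21. Of 24 probes of chromatin and transcription genes 0 were called (median 0.13), with the cell cycle factor E2f2 at 0.42 (adjusted p = 0.184) and the methyltransferase gene Prdm2 at 0.30 (adjusted p = 0.204). Of 17 probes of mitochondrial genes 0 were called (median -0.01), with the mitophagy kinase gene Pink1 at -0.39 (adjusted p = 0.331) and Ndufs5, a subunit of complex I, at 0.20 (adjusted p = 0.493). Of 9 probes of ribosome and translation genes 0 were called (median -0.06), with the Argonaute gene Ago3 at 0.24 (adjusted p = 0.333) and the ribosomal protein gene Rpl22 at -0.22 (adjusted p = 0.375). The median of all probes was -0.027.

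Of 6 probes of genes of the interferon pathway or inducible by it, 1 was called, Themis2, against 3.39% of all probes tested, and 0 lay below wild type (median 0.30, range 0.16 to 0.68); the ubiquitin ligase gene Rnf19b was at 0.37 (limma adjusted p = 0.174). Of 7 probes of myeloid genes 1 was called, Csf3r (median 0.26), and of 6 of lymphoid genes 1, Cd52 (median 0.07). Of 4 probes of erythroid genes 0 were called (median -0.35), with the membrane skeleton gene Epb41 at -0.37 (adjusted p = 0.132; other probes at -0.34 and 0.17) and the Rhesus antigen gene Rhd at -0.38 (adjusted p = 0.209). Peptidylarginine deiminases had 0 calls among 5 probes, with Padi4 at 0.38 (adjusted p = 0.100). In the endocytosis group 2 of 4 probes were called, both of Necap2, and Clstn1, a membrane protein of vesicle transport, was at -0.42 (adjusted p = 0.126). None of the 7 probes of secreted phospholipases A2 passed the detection filter.

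In the comparison with Casp9 intact, Bak/Bax DKO minus WT experiment 2, 0 of the 532 probes were called with limma, against 0.207% of all probes tested. The smallest adjusted p of the region was 0.0833, and 43 probes (8.08%) had an unadjusted p under 0.05, against 8.69% of all. Without Bak/Bax DKO replicate 2, 6 probes (1.13%) were called, against 2.01% of all. Among the 5 largest of these changes, Col16a1, a collagen chain, rose by 1.48 (adjusted p = 0.00765). Rap1gap, which switches off the GTPase Rap1, rose by 0.92 (adjusted p = 0.0443). Single probes fell in Clspn, an adaptor of the replication checkpoint (ILMN_1241320, -1.38, adjusted p = 0.0187), E2f2 (-0.98, adjusted p = 0.0469) and Kif1b (-0.94, adjusted p = 0.0469). The change of the brightest Clspn probe lay 1.36 above that of ILMN_1241320 (limma adjusted p of the pair = 0.206). It lay 0.12 and 0.31 above those of other Clspn probes. Other probes of E2f2 (-0.71 and -0.43) and Kif1b (-0.73 and -0.09) were not called. Of the 22 probes called in Casp9 KO, 0 were among the 6. Counts this small say little on whether calls are shared, and the overlap over all probes was not counted.

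The flanks of the genes deleted in Bak/Bax DKO, taken 20 Mb to each side in the same way, gave other counts. Around Bax on chromosome 7, 14 of 224 tested probes (6.25%) were called in Bak/Bax DKO and 32 (14.3%) without replicate 2. Around Bak1 on chromosome 17 these counts were 8 of 661 (1.21%) and 36 (5.45%). The background in Bak/Bax DKO was 0.207% of all probes tested, and 2.01% without replicate 2. The region around Casp9 had 22 of 532 (4.14%) in its own knock-out, where the background was 3.39%.

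The difference between the 2 knock-out effects was called for 5 probes of the region (0.94%), against 1.49% of all probes tested. Without Bak/Bax DKO replicate 2 it was called for 35 (6.58%), against 5.28% of all. Among the 22 probes called in Casp9 KO it was called for 1, Cnr2 probe ILMN_1235201, on all 12 arrays and for 11 without that array, both Necap2 probes and Sdc3 among them. The Casp9 KO and Bak/Bax DKO effects share no arrays, but the difference contains the Casp9 KO change by which the 22 were called. These counts are therefore no separate support for the calls, and the share among all probes called in Casp9 KO was not counted. For Agrn, AK044300, Smim1, Pabpc4 and Themis2 the test of the difference missed the threshold with and without that array.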

How the data were processed

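Per the labels' protocols, RNA of sorted cells (at most 250 ng) was made into biotin-labelled cRNA and hybridised to Illumina Mouse WG6V2 beadchips. The deposited table of bead intensity gives 1 linear value per probe and array, with the probe positions used here. The deposited detection score beside it is headed as a p-value but rises with intensity, and was read as 1 minus the detection p. The main values are the authors' deposited normalized log2 signals. No header names their steps, and background correction and quantile normalization of the intensities with neqc (offset 16) came within 0.0576 of them. The submitters' processing notes name GenomeStudio and limma without versions.

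Probes with a detection p under 0.05 on at least 3 of 12 arrays were tested. Of the 1080 probes of the region, 968 were named through their Entrez ID, 89 by the symbol in the file and 23 by a target ID alone. For 9 tested ones the reference annotation puts the gene on another chromosome. Probes with several locations, 3 of which touched the region, were left out. Two-sided limma tests (limma 3.58.1, R 4.3.3, lmFit and eBayes) used only the 6 arrays of each comparison, since Bak/Bax DKO replicate 2 would otherwise enter the spread of the Casp9 KO comparison. The difference of the 2 effects used all 12 arrays. Adjustment (Benjamini-Hochberg) ran over all probes tested, or over all probe pairs. The fits were tested on simulated data. The number of arrays limits the precision.

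Named were every Necap2 probe, every gene with a called probe, every tested gene within 1 Mb of Casp9, called probe pairs, the 5 largest called changes of the control comparison and, per list, the called and up to 2 other members. Col16a1 and Plekhg5 are named for the difference between knock-outs, and Klf1 with the erythroid markers. Some results that this rule names are not reported here. The region, lists and tests were chosen with earlier results of these data known. Alternatives covered single arrays left out, the detection filter, background correction, normalization, array weights, a replicate block and a fit to all 12 arrays; leaving Bak/Bax DKO replicate 2 out of the last was chosen after seeing the data.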

Additional observations from a re-analysis of the deposited data

Results flagged for a closer look

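Casp9 KO and Bak/Bax DKO changed 5 probes of the region differently by the limma test of the difference of the 2 effects on all 12 arrays. The difference was -2.45 for Col16a1 (adjusted p = 0.00374), which was at -0.81 in Casp9 KO and 1.63 in Bak/Bax DKO. It was -1.42 for Cnr2 probe ILMN_1235201 (adjusted p = 0.048), which was at -1.07 and 0.35. It was -0.99 for Plekhg5 (adjusted p = 0.0477), which was at -0.38 and 0.61. In the other direction it was 1.28 for E2f2 (adjusted p = 0.048), at 0.42 and -0.86, and 1.28 for Kif1b (adjusted p = 0.0265), at 0.44 and -0.84. Of these single changes, that of Cnr2 in Casp9 KO was called on its own.

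Casp9 KO arrays of 5 further called probes all lay on one side of their wild-type mean while all 3 Bak/Bax DKO arrays lay on the other. The Casp9 KO side follows from the call, and how often this happened among all called probes was not counted. The Casp9 KO change was 0.66 for Csf3r, against -0.27 in Bak/Bax DKO. It was 2.80 for Ncmap, against -1.04, and 0.60 for Ubr4, against -0.20. It was -0.64 for Rcan3, against 0.30, and -0.95 for Cnr2 probe ILMN_2794526, against 0.40. The limma test of these differences missed the threshold on all 12 arrays (adjusted p = 0.0571 to 0.0853). Without Bak/Bax DKO replicate 2 it passed for Csf3r (0.0365), Ncmap (0.0371), Rcan3 (0.0328) and this Cnr2 probe (0.0235) and not for Ubr4 (0.0542). The Csf3r probe was above background on 0 arrays of WT experiment 1 and 1 of Bak/Bax DKO. Brighter Csf3r probes had positive but uncalled changes in both knock-outs (0.49 and 0.29, 0.26 and 0.21), while ILMN_1241302 was at 0.36 and -0.19, also uncalled. Without Bak/Bax DKO replicate 2 the Bak/Bax DKO changes of the brighter probes were 0.10 and 0.08, and that of ILMN_1241302 was -0.13. For Ncmap the wild-type mean of experiment 2 rested on 1 raised array (4.41, 7.28 and 4.63), and Bak/Bax DKO was above background on 0 arrays. The causes were not tested.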

How the results depend on the processing

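The 22 calls of the region in Casp9 KO became 4 to 27 with single arrays left out, 12 with no detection filter, 6 in a fit to all 12 arrays (28 there without Bak/Bax DKO replicate 2), 4 at an adjusted p under 0.01 and 9 when a log2 change of at least 1 was also asked. Over all probes the 640 calls became 223 to 897, 394, 216, 802, 195 and 240. The lowest of the region, 4, came without WT experiment 1 replicate 2; the count was 6 without replicate 3, 13 without replicate 1 and 8 without Casp9 KO replicate 3. With no background correction 13 probes were higher and 16 lower, and with array weights 16 and 16, against 13 and 9. The 0 calls in Bak/Bax DKO became 6 without replicate 2 and stayed at 0 with each other array left out; they were 6 with array weights, 3 in the fit to all 12 arrays and 12 in that fit without the array. The 5 calls on the difference of effects became 1 to 35 with single arrays left out (35 without Bak/Bax DKO replicate 2, 11 without replicate 1), 38 with array weights, 8 with no background correction, and 3 with median-centred arrays or no detection filter. The called pair count of 1 became 2 without Casp9 KO replicate 2, 3 with no detection filter and 0 with all 12 arrays. With the replicate number as a block, 14 probes were called in Casp9 KO, 0 in Bak/Bax DKO and 1 for the difference. Deviations of same-numbered arrays from their group means correlated at 0.204, -0.075 and 0.065 in experiment 1. Those of different-numbered arrays correlated there at -0.181 to 0.137. In experiment 2 the same-numbered values were 0.114, 0.047 and 0.06, and the different-numbered ones were -0.072 to -0.004. These values do not settle whether the numbers paired the samples, and the main fits used no pairing. None of the 22 called probes changed sign under these alternatives. Among the named probes, signs changed only for uncalled ones within 1 Mb of Casp9 with small changes. This does not cover the other tested probes of the region. The causes were not tested.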
